A study of Homo sapiens with 10 samples.

Results

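The proteasome genes described here are the rows of the deposited count table whose gene symbol begins with PSMA, PSMB, PSMC, PSMD, PSME or PSMF and ends in a number. The rule reads the symbols and no measured value. They are 46 rows with 44 distinct symbols out of 32738 rows, and 41 of them were among the 12733 genes with enough counts to be tested. They were measured in HepG2 cells, an established human hepatoma line, that were kept either in regular growth medium (untreated) or in medium with 2 µg/ml tunicamycin, in both cases for 17 h and with serum and antibiotics. Tunicamycin blocks N-linked glycosylation, so that proteins misfold in the endoplasmic reticulum (ER). RNA was sequenced from the 3′ ends of mRNAs (QuantSeq 3′ FWD), with 5 libraries per condition made in experiments on separate days. The culture is a single tumour-derived line, so the values describe that line and not hepatocytes in tissue.

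The 26S proteasome is the large protease that degrades proteins tagged with ubiquitin. Its 20S core is a barrel of outer alpha rings and inner beta rings, with the active sites on PSMB5, PSMB6 and PSMB7. Its 19S cap binds ubiquitin and holds an ATPase ring that unfolds substrates and a lid that removes ubiquitin. Misfolded ER proteins are drawn back into the cytosol by the ATPase VCP and handed to this machine, a route called ER-associated degradation. When proteasome capacity falls short, the factor NRF1, encoded by NFE2L1, is known to raise transcription of many subunit genes at once through antioxidant response elements in their promoters.

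The libraries held 4242538 to 4888292 counts in untreated cells and 2234682 to 5029864 counts with tunicamycin, where replicates 5 and 4 had the lowest totals. The mitochondrial share of counts ran from 22.7% to 25.2% without treatment and from 18.3% to 28.8% with it, and was highest in tunicamycin replicate 4. The ER chaperone gene HSPA5, which reports on the treatment, averaged 8445 ± 559 normalized counts (counts scaled to a common library size) in untreated cells and 66200 ± 4410 with tunicamycin (SD, n = 5 each), and DDIT3, HERPUD1 and DNAJB9 were higher in 5 of 5 replicate pairs. All 7 hepatocyte markers examined stayed above 10 normalized counts in every library. APOA1, APOB and TTR were called lower, without overlap between conditions, at log2 fold changes of -0.91, -0.78 and -1.02. ALB, AFP, SERPINA1 and HNF4A were not called. The sum of all 7 was 58570 to 73950 untreated and 46390 to 52160 with tunicamycin, and its part in the results below was not tested. Of the 7 markers of other cell types, PTPRC and COL1A2 were at 0 in every library, COL1A1 and KRT7 had at most 5 and 3 counts in a library, and PECAM1 was not analysed here. The list's sum was 828 to 1035 untreated and 903 to 1207 with tunicamycin, of which the epithelial gene EPCAM made 793 to 1018 and 891 to 1191. CD68, at 27.8 ± 7.35 untreated and 15.6 ± 6.61 with tunicamycin (SD, n = 5 each), was called lower, and its part in the results was not tested.

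Tunicamycin moved proteasome genes in both directions and left the middle of the family near 0. Of the 41 tested genes, 13 rose, 4 fell and 24 passed no threshold in edgeR's quasi-likelihood test with an adjusted p under 0.05. The 13 that rose are 31.7% of the tested genes, beside 17.6% of all tested genes, and the 4 that fell are 9.76%, beside 16.6%. In either direction 34.2% of all tested genes were called. The median log2 fold change of the 41 genes was -0.02 with quartiles of -0.17 and 0.44, whereas the median of all tested genes was 0.00 with quartiles of -0.34 and 0.35. Single proteasome genes ranged from -1.14 to 1.40. Only PSMA5, PSMD11 and PSMB9 changed more than 2-fold, while 8.74% of all tested genes were called and passed that size.

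The genes that rose were PSMA1, PSMA3 and PSMA5 of the alpha ring, PSMB1, PSMB2 and PSMB3 of the beta ring, PSMC2 of the ATPase ring, PSMD6, PSMD11 and PSMD14 of the 19S lid, the chaperone PSMD10, the activator PSME3 and the inhibitor PSMF1. The genes that fell were PSMB9, PSMC1, PSMD1 and PSMD3. For 8 of the 41 genes the 5 tunicamycin values and the 5 untreated values did not overlap, and all 8 were higher with tunicamycin, beside 11.7% of all tested genes that were higher without overlap and 11.9% that were lower. Among the 17 called genes, 16 had the same direction in 5 of 5 replicate pairs, and PSMF1 had it in 4. Within the pairs the median log2 ratio of the 41 genes was 0.04, 0.04, -0.02, 0.04 and 0.01 for replicates 1 to 5. Because whole cultures were measured, fewer cells that express a gene and less of its RNA per cell cannot be told apart. Summed over all rows, proteasome transcripts gave 26630 ± 1309 normalized counts in untreated cells and 27940 ± 1145 with tunicamycin (SD, n = 5 each), with ranges of 25270 to 28610 and 26840 to 29750 that overlap.

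**Figure D1:**
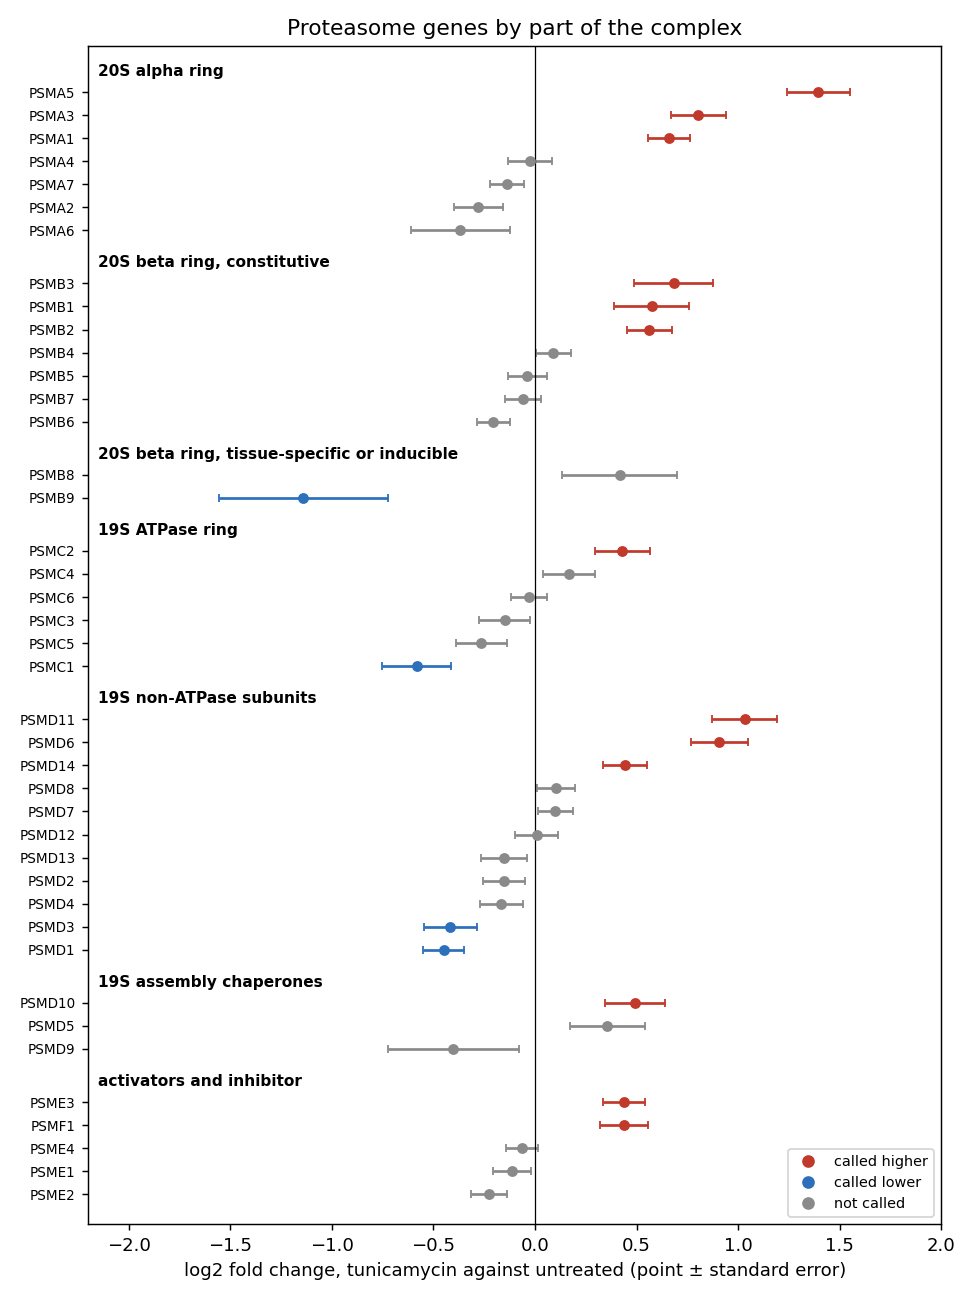
Log2 fold change of each tested proteasome gene (horizontal axis, tunicamycin against untreated, point ± standard error from edgeR, 5 libraries per condition), ordered by its place in the complex. Red points were called higher and blue points lower at an adjusted p under 0.05, and the red points from PSMC2 at 0.43 up to PSMA5 at 1.40 lie in every block but that of the inducible beta subunits.

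For many of the called proteasome genes the same library was at the extreme of its condition. Among the 13 genes that rose, untreated replicate 1 had the lowest untreated value for 11 and tunicamycin replicate 1 the lowest tunicamycin value for 9, and tunicamycin replicate 4 had the highest tunicamycin value for 7. Among the 4 that fell, replicate 1 had the highest untreated value for 3 and the highest tunicamycin value for 3. These counts have no share over all genes beside them. Over 10736 genes, deviations of the replicate 1 libraries from their group means correlated at 0.317, beside 0.0171 to 0.122 for the other replicates. Whether the pattern is particular to proteasome genes was not tested. Without tunicamycin replicates 4 and 5, the libraries with the lowest totals, 9 genes remained called higher and 1 lower. In that fit 1810 of all 13190 tested genes were called higher and 1667 lower, beside 2237 and 2116 of 12733 with all libraries. PSMB1, PSMB3, PSMC2 and PSMF1 then lost the higher call and PSMB9, PSMC1 and PSMD3 the lower call. Without tunicamycin replicate 1 alone, 13 genes were called higher and 7 lower, as PSMB9 lost its call and PSMB6, PSMC3, PSMC5 and PSME2 gained one. Of all 12955 genes tested in that fit, 2317 were called higher and 2171 lower.

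**Figure D2:**
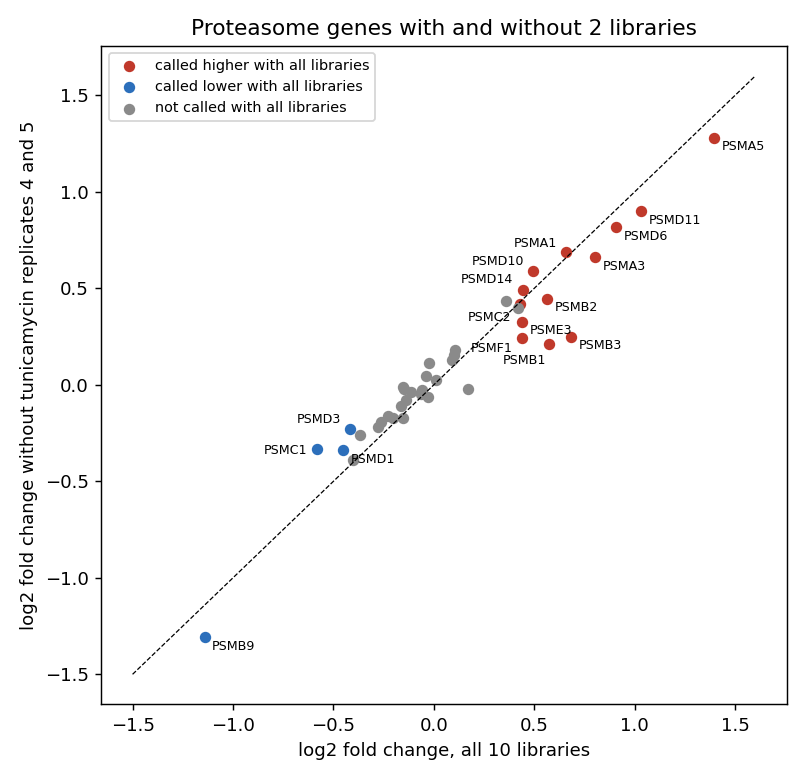
Log2 fold change of the 41 tested proteasome genes with all 10 libraries (horizontal axis) and without tunicamycin replicates 4 and 5 (vertical axis), coloured by the call with all libraries, with the dashed line at equality. PSMB1 moved from 0.57 to 0.21 and PSMB3 from 0.68 to 0.25, farther below the line than PSMA5, which moved from 1.40 to 1.28.

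Most promoters of the genes that rose held a CCAAT box, a common promoter element bound by the factor NF-Y. Promoter windows of 300 bases from RefSeq (GRCh38.p14) were found for 36 of the 41 tested genes, and those of PSMA7, PSMB1, PSMB6, PSMB7 and PSMD4 were not analysed here. Read on both strands, CCAAT was present in 9 of 12 windows of genes that rose, in 2 of 4 of genes that fell and in 6 of 20 of genes not called. Over all 36 proteasome windows it was in 17 (47.2%), beside 37.3% of windows of all tested genes. PSMA5, PSMA3 and PSMB3, which rose, each held 2 such boxes at separate places, while PSMA2, which passed no threshold, held 1 at position -84 from the gene start, beside -83 for the outer box of PSMA5. These windows are shown 5′ to 3′ on the gene's strand, with the box, or its reverse complement ATTGG, in capitals. The PSMA5 windows are chr1:109426518-109426540 and chr1:109426489-109426511 (minus strand), those of PSMA3 chr14:58244799-58244821 and chr14:58244816-58244838 (plus), those of PSMB3 chr17:38752677-38752699 and chr17:38752719-38752741 (plus), and that of PSMA2 chr7:42932245-42932267 (minus).
PSMA5 at -83: cgcgttggcCCAATcacctaggc
PSMA5 at -54: tactaccagCCAATaggaagcag
PSMA3 at -35: aaaaaggttATTGGttggcagtt
PSMA3 at -18: gcagttcagCCAATgagcgggcc
PSMB3 at -55: gacgtgtgaCCAATagaaagccc
PSMB3 at -13: gcctatcagCCAATgaagagaca
PSMA2 at -84: gactctcctCCAATcatagagag

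The core of the antioxidant response element, TGACNNNGC on either strand, was present in 11 of the 36 proteasome windows (30.6%), beside 15.5% of windows of all tested genes. It occurred in 1 of 12 windows of genes that rose, in 3 of 4 of genes that fell and in 7 of 20 of genes not called. The member that rose and held it was PSMB3. Windows from PSMB3 (chr17:38752628-38752654, plus), PSMD3 (chr17:39980761-39980787, plus) and PSMB9 (chr6:32854035-32854061, plus) are shown because they lie in genes that moved in opposite directions, with the core or its reverse complement in capitals.
PSMB3 at -104: cctccgtttTGACTTTGCaaccaaact
PSMD3 at -37: cccctttgtTGACTCGGCcatcggcct
PSMB9 at -148: ggcggggctGCCTCGTCActtgtctcg

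The ER stress response element, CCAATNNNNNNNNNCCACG, which contains the CCAAT box, was in 0 of the 36 windows and in 0.1% of windows of all tested genes. The core of the C/EBP-ATF element, TGATGNAA, was in 1 (2.8%), that of PSMF1, beside 1.6% of windows of all tested genes. These matches are descriptions of letters in a window, were looked for after the calls were known and were not tested.

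In the alpha ring, which gates entry to the core, 3 of 7 tested genes rose and the median log2 fold change was -0.02. PSMA5, on chromosome 1 at 109399042 to 109426448 of GRCh38, had normalized counts of 74.0, 95.4, 111, 114 and 101 in the untreated cells, in the order of replicates 1 to 5, and of 167, 283, 268, 284 and 311 with tunicamycin. The lowest treated value, that of replicate 1, lay above every untreated value. The log2 fold change was 1.40 with a standard error of 0.16, a 2.63-fold rise (adjusted p = 1.38e-06, edgeR's quasi-likelihood test with Benjamini-Hochberg adjustment). Its promoter is among the 3 shown above with 2 CCAAT boxes.

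PSMA3 gave 244, 281, 319, 332 and 302 normalized counts untreated and 341, 510, 545, 654 and 541 with tunicamycin. PSMA1 gave 189, 208, 259, 259 and 240 untreated and 333, 400, 377, 346 and 367 with tunicamycin. In both genes the conditions did not overlap. Their log2 fold changes were 0.80 ± 0.14 and 0.66 ± 0.10 (standard errors), with adjusted p = 1.42e-04 and 7.37e-05 in edgeR's quasi-likelihood test. The exact permutation test over the 10 libraries, two-sided, gave p = 0.00794 for PSMA1, PSMA3 and PSMA5, the smallest it can give. PSMA6 had the lowest fold change of the ring and few counts, with 20.7, 24.1, 34.1, 25.1 and 33.5 untreated and 25.3, 27.8, 15.1, 17.9 and 18.2 with tunicamycin. Its log2 fold change of -0.37 ± 0.24 was not past the threshold (adjusted p = 0.261), and its values overlap. PSMA2, PSMA4 and PSMA7 passed no threshold either, at -0.28, -0.02 and -0.14.

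**Figure D3:**
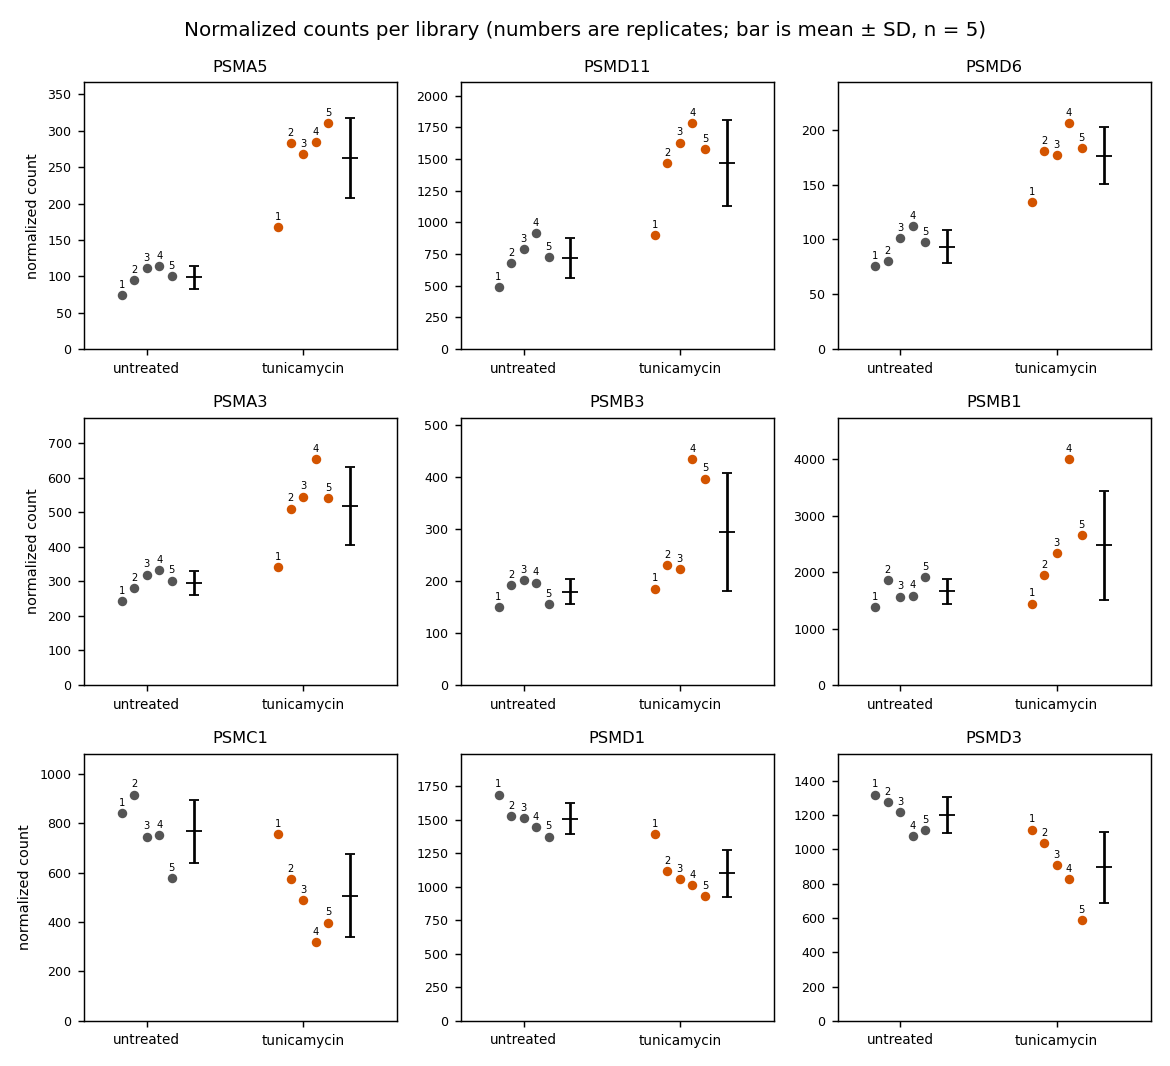
Normalized counts per library (vertical axes, starting at 0) of 6 proteasome genes that rose and 3 that fell, with numbered points for replicates of untreated cells (grey) and tunicamycin (orange) and bars for the mean ± SD of 5 libraries. PSMB1 reached 4009 in tunicamycin replicate 4 against 1443 in replicate 1, whereas the PSMA5 values of tunicamycin, from 167 to 311, all lie above the untreated ones.

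Among the constitutive beta subunits, 3 of 7 rose and all 3 are structural, without an active site. PSMB2 gave 267, 299, 337, 390 and 317 normalized counts untreated and 404, 439, 467, 534 and 547 with tunicamycin, without overlap. The log2 fold change of PSMB2 was 0.56 ± 0.11 (adjusted p = 6.19e-04, edgeR's quasi-likelihood test). PSMB3 gave 151, 193, 202, 197 and 157 untreated and 186, 230, 223, 436 and 398 with tunicamycin. PSMB1 gave 1384, 1865, 1567, 1587 and 1913 untreated and 1443, 1953, 2345, 4009 and 2655 with tunicamycin. In these last 2 genes tunicamycin replicates 4 and 5 stood highest, and the conditions overlapped.

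The log2 fold change of PSMB3 was 0.68 ± 0.19 (adjusted p = 0.00982) and that of PSMB1 was 0.57 ± 0.19 (adjusted p = 0.0212, both from edgeR's quasi-likelihood test). Without tunicamycin replicates 4 and 5 they were 0.25 (adjusted p = 0.176) and 0.21 (adjusted p = 0.290). Leaving out tunicamycin replicate 4 alone lowered PSMB1 to 0.34 and ended its call (adjusted p = 0.0779), and the exact permutation test, two-sided, gave p = 0.0794 for it with all libraries. DESeq2 did not call PSMB1 (adjusted p = 0.0793).

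The genes of the 3 active-site subunits passed no threshold. PSMB5, the chymotrypsin-like site, gave 850, 823, 855, 711 and 740 normalized counts untreated and 883, 694, 880, 705 and 710 with tunicamycin, a log2 fold change of -0.04 ± 0.10 (adjusted p = 0.797). PSMB7, the trypsin-like site, gave 1192, 1022, 1069, 915 and 1111 untreated and 1140, 956, 1020, 973 and 1007 with tunicamycin, a change of -0.06 ± 0.09 (adjusted p = 0.649). PSMB6, the caspase-like site, gave 1141, 1055, 1052, 985 and 1009 untreated and 1025, 884, 871, 845 and 924 with tunicamycin, lower in 5 of 5 pairs. Of these 3 genes PSMB6 came nearest to the threshold, with a log2 fold change of -0.20 ± 0.08 (adjusted p = 0.0620). The replicate number, taken here to stand for the day, was also added as a block. PSMB6 was then past the threshold (adjusted p = 0.0362, both by edgeR's quasi-likelihood test). DESeq2 called it without the block (adjusted p = 0.0404) but not with it (adjusted p = 0.0501), nor did the block with a correction for GC content (adjusted p = 0.244). The remaining constitutive subunit, PSMB4, was at 0.09 and was not called.

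The inducible subunits, which replace the active sites in the immunoproteasome of immune and interferon-treated cells, had low counts. PSMB9 and PSMB10 were at the edge of detection. PSMB9 gave 24.1, 8.02, 10.5, 8.06 and 15.2 normalized counts untreated and 5.07, 6.95, 3.78, 5.49 and 10.1 with tunicamycin, and 99 raw counts over all 10 libraries. Untreated replicate 1 was the highest of these values. The log2 fold change of PSMB9, -1.14 ± 0.42, just passed the threshold (adjusted p = 0.0406), fell short with the replicate block (adjusted p = 0.0529, edgeR's quasi-likelihood test) and lost the call when any of 6 of the 10 libraries was left out, namely untreated replicates 1 and 5 and tunicamycin replicates 1, 2, 3 and 4.

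PSMB8 gave 13.8, 21.4, 34.1, 44.8 and 39.6 untreated and 38.0, 49.6, 33.1, 27.5 and 60.5 with tunicamycin, an overlapping spread with a log2 fold change of 0.42 ± 0.28 (adjusted p = 0.272). The 5′ starts of the GENCODE genes overlap on chromosome 6, PSMB8 at 32840717 to 32844679 (minus strand) and PSMB9 at 32844136 to 32859851 (plus). Whether the counting used strand is not given in the sources used here, so reads of the overlap could count for either gene. The libraries were read from 3′ ends, and how many reads fell in the overlap was not tested. PSMB10 had 6 raw counts in all and was not tested. The thymus subunit PSMB11, the testis subunit PSMA8 and the second rows of PSMA1 and PSMA2, which belong to readthrough genes, had 0 counts in every library, which allows up to 3 counts per library.

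**Figure D4:**
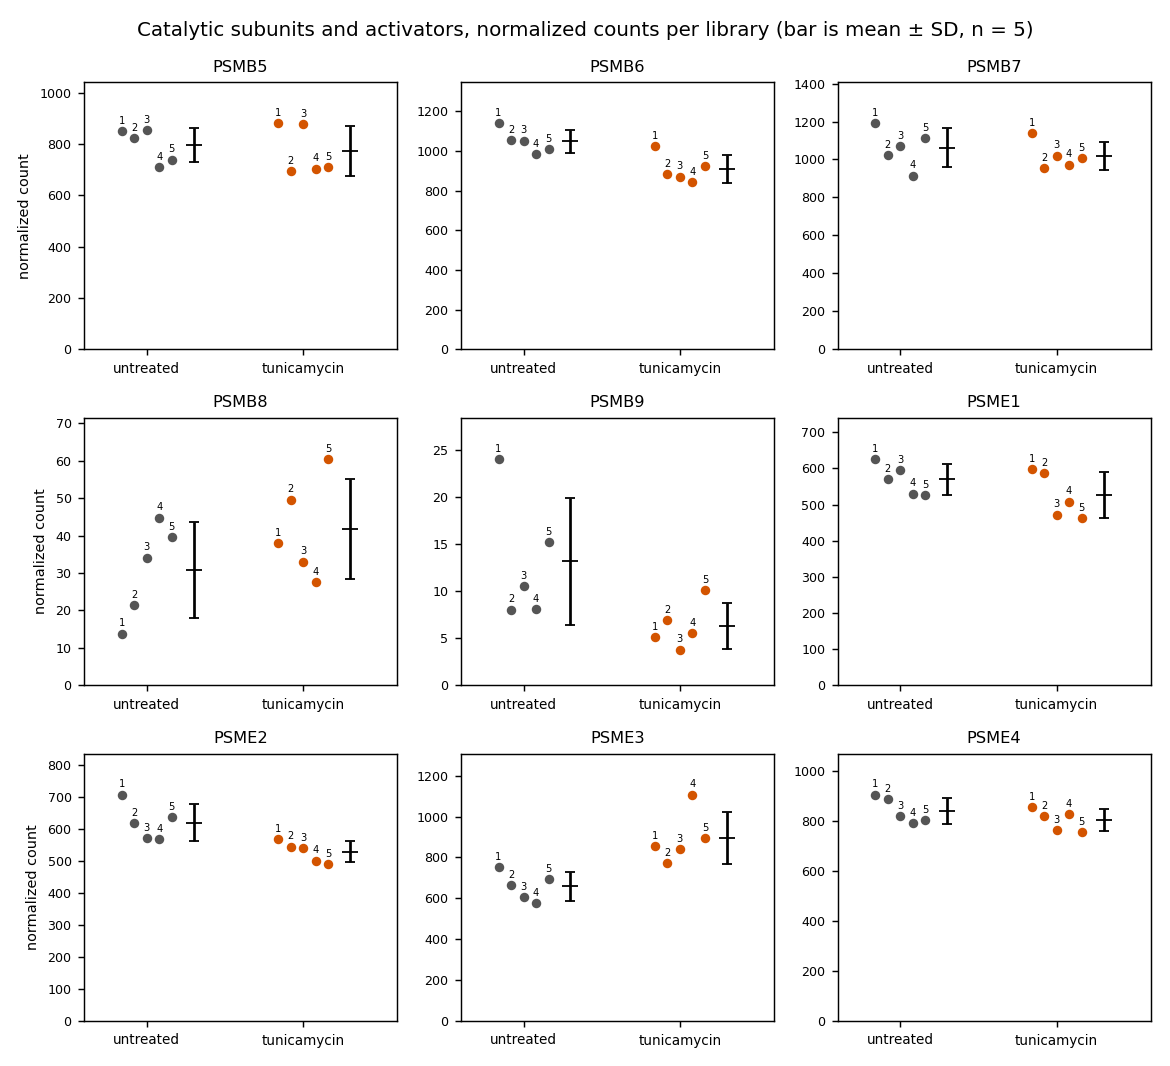
Normalized counts per library (vertical axes, starting at 0) of the active-site subunits PSMB5, PSMB6 and PSMB7, the inducible subunits PSMB8 and PSMB9 and the activators PSME1 to PSME4, with numbered replicates of untreated cells (grey) and tunicamycin (orange) and bars for the mean ± SD of 5 libraries. PSME3, at 773 to 1107 with tunicamycin against 575 to 751 untreated, has no overlap between conditions, and PSMB5, at 694 to 883 against 711 to 855, overlaps almost fully.

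The ATPase ring of the cap, PSMC1 to PSMC6, held 1 gene that rose and 1 that fell, with a median log2 fold change of -0.09. PSMC2 gave 142, 161, 213, 230 and 163 normalized counts untreated and 226, 214, 284, 275 and 226 with tunicamycin, higher in 5 of 5 pairs but overlapping between conditions. Its log2 fold change was 0.43 ± 0.14 (adjusted p = 0.0183, edgeR's quasi-likelihood test), and the call was lost without untreated replicate 2 or without tunicamycin replicate 3 (highest adjusted p = 0.0634). PSMC2 shares exon sequence on the same strand with PMPCB in GENCODE. Whether this holds for the hg19 gene definitions behind the counts was not tested, so the PSMC2 count is uncertain to that extent.

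PSMC1 gave 843, 916, 746, 753 and 577 untreated and 758, 576, 488, 319 and 398 with tunicamycin. It was lower in 5 of 5 pairs, although tunicamycin replicate 1 lay inside the untreated range. The log2 fold change was -0.58 ± 0.17 (adjusted p = 0.0125, edgeR's quasi-likelihood test), and -0.33 without tunicamycin replicates 4 and 5 (adjusted p = 0.0997). GENCODE names 13 pseudogenes of PSMC1, none with a row in the count table, and how reads shared with them were counted is not given in the sources used here. PSMC3, PSMC4, PSMC5 and PSMC6 lay between -0.26 and 0.17, and none of them was called. PSMC5 (adjusted p = 0.114) was past the threshold with the replicate block (adjusted p = 0.0187) and without tunicamycin replicate 1 (adjusted p = 0.0262, edgeR's quasi-likelihood test).

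Of the 11 non-ATPase subunits, 3 rose and 2 fell, and the median log2 fold change was 0.01. PSMD11, a lid subunit, gave 491, 676, 787, 915 and 725 normalized counts untreated and 899, 1469, 1629, 1783 and 1576 with tunicamycin. It was higher in 5 of 5 pairs, and only tunicamycin replicate 1 lay below an untreated value, that of replicate 4. This was a log2 fold change of 1.03 ± 0.16, or 2.04-fold (adjusted p = 6.80e-05, edgeR's quasi-likelihood test). PSMD6, another lid subunit, gave 75.8, 80.2, 102, 112 and 97.6 untreated and 134, 181, 177, 206 and 184 with tunicamycin, without overlap. PSMD6 rose by 0.91 ± 0.14 on the log2 scale (adjusted p = 5.33e-05, edgeR's quasi-likelihood test). PSMD14, the deubiquitinase that cuts ubiquitin chains off the substrate, also rose without overlap, by 0.44 on the log2 scale (adjusted p = 0.00376).

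PSMD1, the large scaffold subunit of the base, gave 1685, 1525, 1511, 1444 and 1372 untreated and 1389, 1118, 1057, 1011 and 930 with tunicamycin. Only tunicamycin replicate 1 reached into the untreated range. PSMD1 fell by 0.45 ± 0.10 on the log2 scale (adjusted p = 0.00202, edgeR's quasi-likelihood test), and PSMD1 was the gene that kept its lower call without tunicamycin replicates 4 and 5 (-0.34, adjusted p = 0.0220). PSMD3, a lid subunit, fell by 0.42 (adjusted p = 0.0166), or 0.23 without those libraries (adjusted p = 0.0994). The other 6 lay between -0.16 and 0.10 and were not called, including the ubiquitin receptor PSMD4 and the substrate-binding scaffold PSMD2.

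The 3 chaperones that help assemble the cap's ATPase ring had low counts. PSMD10, known as gankyrin, gave 43.0, 47.3, 49.0, 50.2 and 53.9 untreated and 70.9, 71.5, 76.5, 64.6 and 54.5 with tunicamycin, without overlap though tunicamycin replicate 5 lay close to the untreated values. PSMD10 rose by 0.49 ± 0.15 on the log2 scale (adjusted p = 0.0137, edgeR's quasi-likelihood test). The call was lost with all libraries thinned to the smallest total (adjusted p = 0.121) and in DESeq2 with the replicate block (adjusted p = 0.0780). PSMD9 gave 16.4, 16.1, 17.5, 27.8 and 18.3 untreated and 22.8, 8.93, 11.3, 20.6 and 6.05 with tunicamycin, a spread that includes a log2 fold change of -0.40 ± 0.32 (adjusted p = 0.360). PSMD5 was at 0.36 ± 0.19 and was not called.

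Activators bind the ends of the 20S core in place of the cap. PSME3, the nuclear activator PA28-gamma, gave 751, 665, 607, 575 and 693 normalized counts untreated and 856, 773, 839, 1107 and 896 with tunicamycin, without overlap. PSME3 rose by 0.44 ± 0.10 on the log2 scale (adjusted p = 0.00249, edgeR's quasi-likelihood test). PSMF1, the inhibitor PI31, gave 862, 829, 755, 713 and 690 untreated and 831, 904, 988, 1379 and 1126 with tunicamycin, lower in the first pair and higher in the other 4. Its log2 fold change was also 0.44 ± 0.12 (adjusted p = 0.00728), and 0.24 without tunicamycin replicates 4 and 5 (adjusted p = 0.0822).

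The interferon-responsive activators PSME1 and PSME2 and the activator PSME4 were not called. PSME2 gave 706, 616, 570, 568 and 635 untreated and 568, 544, 539, 500 and 488 with tunicamycin, lower in 5 of 5 pairs. Its log2 fold change of -0.23 ± 0.09 stood at the threshold (adjusted p = 0.0515) and was past it with the replicate block (adjusted p = 0.0328, edgeR's quasi-likelihood test). DESeq2 called it without the block (adjusted p = 0.0436), and it was not called in DESeq2 with the block (adjusted p = 0.0658) or in edgeR with the block and GC correction (adjusted p = 0.0560). PSME1 gave 627, 570, 596, 530 and 525 untreated and 599, 587, 472, 508 and 462 with tunicamycin (log2 fold change -0.11 ± 0.09). PSME4 gave 906, 889, 820, 792 and 805 untreated and 856, 820, 763, 830 and 757 with tunicamycin (-0.06 ± 0.08). The values of both genes overlap broadly between conditions.

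The 3′ ends of the genes that rose had a lower median content of G and C than those of the other proteasome genes, which is described here and was not tested. In the last 500 bases of the canonical transcript (GENCODE, 40 of 41 genes with a value), the median GC content was 37.3% for 12 genes that rose, 46.6% for the 4 that fell and 48.6% for the 24 not called, beside 42.2% for all tested genes. Of the 18 proteasome genes under 45% GC, 8 rose and 1 fell, with a median log2 fold change of 0.23. Of the 22 at 45% or above, 4 rose and 3 fell, with a median of -0.13. All tested genes showed the same order of medians, 0.07 under and -0.12 at or above 45%, with 1568 higher and 1008 lower of 7242 genes under 45% and 641 higher and 1072 lower of 5165 at or above it. Across the 40 genes, which share the same libraries and are not independent replicates, Pearson's r between GC content and log2 fold change was -0.39 and Spearman's rho -0.42, beside r = -0.17 over all tested genes. When the trend of every library with this GC content was removed, in the fit with the replicate block, r was -0.26 for proteasome genes and -0.02 for all tested genes. In that fit 14 were called higher, all 13 of the genes above and PSMD8, and 4 lower, with PSMB9 lost and PSMA2 gained. Of all 12733 tested genes it called 2479 higher and 2390 lower, beside 2237 and 2116 in the main fit.

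**Figure D5:**
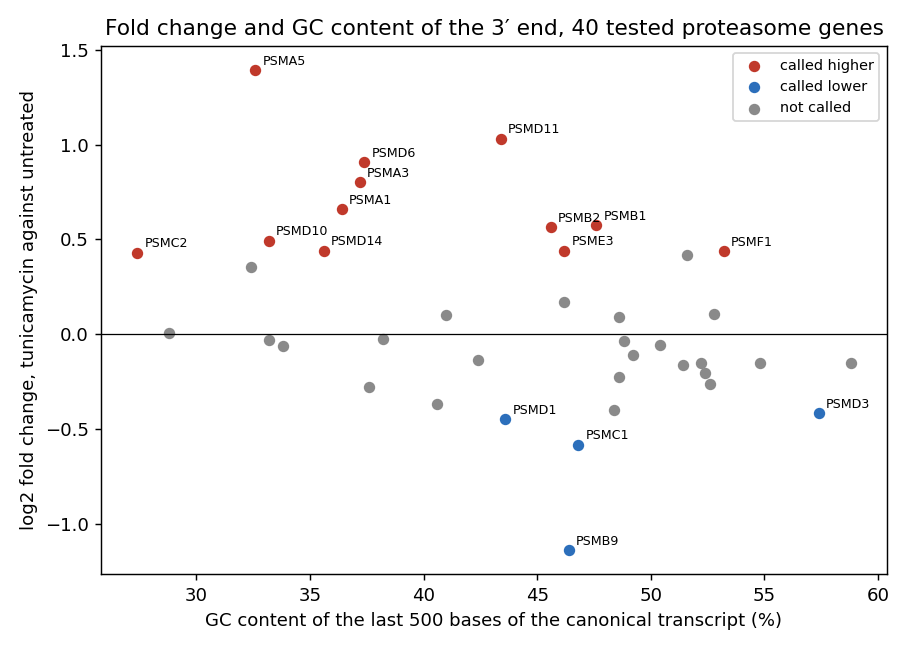
GC content of the last 500 transcript bases (horizontal axis, percent) and log2 fold change (vertical axis, tunicamycin against untreated) of 40 tested proteasome genes, coloured by call. The genes that rose lie between 27.4% and 53.2% GC with a median of 37.3%, and the genes not called have a median of 48.6%.

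A list of 45 further genes of the pathway, in 46 rows of which 43 were tested, gave 12 that rose and 3 that fell. Beside this count and those of the list's parts below, 17.6% of all tested genes were called higher and 16.6% lower. The median log2 fold change of the list was 0.14, beside -0.003 for all tested genes. NFE2L1, which encodes NRF1, gave 219, 251, 274, 280 and 257 normalized counts untreated and 476, 476, 491, 462 and 500 with tunicamycin, far from overlapping. NFE2L1 rose by 0.91 ± 0.09 on the log2 scale (adjusted p = 2.60e-07, edgeR's quasi-likelihood test). Its relative NFE2L3 rose by 0.84 (adjusted p = 0.00191), whereas NFE2L2, NGLY1 and DDI2, the last 2 of which process NRF1, were not called.

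Other parts of the cap and enzymes bound to it gave 3 of 8 that rose. The small lid subunit SEM1, listed as SHFM1, rose by 0.77 (adjusted p = 0.00159), the proteasome adaptor ECPAS, listed as KIAA0368, by 0.99 (adjusted p = 5.56e-05) and the ubiquitin ligase UBE3A by 0.24 (adjusted p = 0.0370, edgeR's quasi-likelihood test for all 3). The call of UBE3A was lost in 7 of 10 leave-outs of a single library. Of 6 assembly chaperones outside the PSM subunit names, PSMG2, which helps to build the alpha ring, rose by 0.83 (adjusted p = 6.75e-04).

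Among the shuttles and extraction factors that bring substrates to the proteasome, 4 of 11 rose. VCP gave 1032, 1043, 1109, 1031 and 1043 untreated and 1727, 1555, 1608, 1618 and 1610 with tunicamycin, a log2 fold change of 0.63 ± 0.08 (adjusted p = 3.39e-06, edgeR's quasi-likelihood test). The conditions were far apart and the 5 values within each were close together. ZFAND2A rose by 0.69 (adjusted p = 1.63e-04), ZFAND5 by 0.48 (adjusted p = 0.00387) and the shuttle RAD23B by 0.41 (adjusted p = 0.00139).

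With the replicate block 15 genes of the list were called higher, PSMG1 and TXNL1 among those added, and 4 lower, with DDI2 added. Of the genes that load peptides onto MHC class I, the classic use of immunoproteasome products, TAP2 rose by 0.50 (adjusted p = 0.00462) and the peptidase ERAP1 by 0.65 (adjusted p = 0.0127), and TAPBP fell by 0.98 (adjusted p = 3.89e-07) and ERAP2 by 1.01 (adjusted p = 3.53e-04).

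Several proteasome genes have near copies or neighbours that could share reads. GENCODE names 40 pseudogenes for 15 of the genes, 0 of which have a row in the count table, and 7 of the 17 called genes have at least 1. In GENCODE release 44 (GRCh38), exons of 8 tested genes overlap another gene on the same strand and those of 16 on the opposite strand. The counts were made on hg19 with other gene definitions, and whether the overlaps hold there was not tested. The part of these copies and overlaps in the results was not tested.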

How the data were processed

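Reads were processed by the authors with the nf-core RNA-Seq pipeline at default settings on hg19. The deposited table holds unnormalized, unfiltered counts for each Ensembl gene and 10 libraries. The aligner, the counting program and the strand setting are not named in the sources used here beyond that.

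Genes were filtered with filterByExpr (minimum count 2, minimum total 10), scaled by TMM and tested in edgeR 4.0.16 (R 4.3.3) by its quasi-likelihood test. Condition was the single model term. Benjamini-Hochberg adjustment of p-values ran over all 12733 tested genes, and a gene was called at an adjusted p under 0.05. A normalized count is the count per scaled library size, times the mean of those sizes. Values after ± of a log2 fold change are standard errors (the size of the change over the root of F). Pair ratios used a pseudocount of 0.5. Exact permutation tests used SciPy 1.17.1. The test was tried on simulated counts first.

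The series text places the 5 replicates on separate days, and libraries with the same number were treated as pairs. The sample titles give the replicate number and no day. Deviations of same-numbered libraries from their group means correlated at 0.317, 0.0171, 0.0391, 0.122 and 0.0864 over 10736 genes. The members and lists were chosen with earlier results of these data known. Values per library are given for the 12 called genes with the largest log2 fold changes, for the highest and lowest gene of each part of the complex, for PSMB5 to PSMB10, PSME1 to PSME4 and PSMF1 where tested. PSMD14 and PSMD3 were called outside that limit and are given by their log2 fold change. Motifs, NFE2L1 and VCP values per library, the GC correction and the fit without tunicamycin replicates 4 and 5 were chosen after the data had been seen. The alternatives were DESeq2 1.42.0, its size factors, library size only, TMM without mitochondrial genes, other filters, the replicate block, thinning to the smallest library and each library left out. Gene positions are from GENCODE release 44 (GRCh38), matched by identifier for 45 of 46 rows, with PSMB3 unmatched. Positions in promoter windows are counted from the RefSeq gene start. All sample columns were used. Results for some genes of the pathway list are not reported here.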

Additional observations from a re-analysis of the deposited data

Results flagged for a closer look

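In 6 of 90 groups of 5 normalized counts, 1 library stood far from the other 4 by Dixon's criterion, where chance flags about 1 in 20 groups, or 4.5 of 90. These values lay in 4 libraries, and none of the 6 genes was called in the comparison of conditions. In untreated replicate 1, PSMA4 had 1142 normalized counts against 857 to 919 in the other untreated libraries, PSMA7 had 5393 against 4439 to 4485 and PSMD8 had 673 against 520 to 555. PSMD9 had 27.8 in untreated replicate 4 against 16.1 to 18.3. PSMD4 had 635 in tunicamycin replicate 4 against 785 to 819, and PSMD5 had 40.4 in tunicamycin replicate 5, the library with the lowest total, against 69.5 to 79.7.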

How the results depend on the processing

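With library size only, 7 proteasome genes were called lower, their median log2 fold change was -0.10 and the median of all tested genes was -0.08, and 40.8% of all calls were higher beside 51.4% with TMM. Without tunicamycin replicates 4 and 5, 1 proteasome gene was called lower, the median was 0.026 and all tested genes gave 3477 calls. With each library left out in turn, 12 to 13 proteasome genes were called higher, 3 to 7 lower (7 without tunicamycin replicate 1), and the median lay between -0.045 and 0.042. For the further pathway genes the leave-outs gave 11 to 13 higher and 3 to 4 lower. All tested genes gave 3806 to 4488 calls. With the replicate block, 13 proteasome genes were called higher, the same 13 genes, and 6 lower, with 4811 calls in all. The block with the GC correction gave 7 lower further pathway genes, with 4869 calls in all. DESeq2 called 12 proteasome genes higher and 6 lower, DESeq2 with the block 11 and 4, and thinning to the smallest library left 12 and 4. Over all tested genes these fits gave 4322, 3878 and 3755 calls, in that order. No result changed its direction while called, and of 860 values of single proteasome genes under an alternative 814 stayed on their side of the threshold, 21 passed it and 25 lost it. The causes of these shifts were not tested. Depth limits PSMB8, PSMB9, PSMD9 and PSMA6, which had fewer than 350 counts in total.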
